A study of Mus musculus with 12 samples.

Results

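Brown adipose tissue of mice that lack the nuclear receptors ERRα and ERRγ in adipocytes was compared with that of control mice in how its transcripts answered the β3-adrenergic agonist CL316,243. The quantity described is the difference between the agonist responses of the 2 genotypes, (ERRKO_CL minus ERRKO_PBS) minus (WT_CL minus WT_PBS), and it uses all 12 libraries of the study, 3 in each of 4 groups. It was computed for the 12249 of 24452 genes that had a mean RPKM of at least 0.5. A difference above 0 is called higher and one below 0 lower, so a gene that rose less in ERRKO than in WT and a gene that fell more are both lower.

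All mice were C57BL/6J Bom males of 12 weeks, kept at 30 °C on chow, and all 4 groups carried the floxed ERRα and ERRγ alleles. WT mice had no Cre, while ERRKO mice (ERRαγAd-/- in the labels) expressed Cre from the adiponectin promoter, which is active in adipocytes, so other cells of the tissue keep both receptors. Presence of Cre and loss of the receptors cannot be told apart in this design. Each genotype was injected intraperitoneally at ZT 4 on 10 days with CL316,243 at 1 mg/kg (WT_CL and ERRKO_CL) or PBS (WT_PBS and ERRKO_PBS), with dissection 24 h after the final injection. The labels do not state that the 3 libraries of a group come from separate animals. The p-values therefore rest on the spread among these samples alone, which may be technical.

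The β3-adrenergic receptor couples to a stimulatory G protein in brown adipocytes, and the cAMP that follows activates protein kinase A, lipolysis, Ucp1 transcription and, with days of stimulation, growth of mitochondria and of fat synthesis. ERRα and ERRγ bind a short element in the promoters of genes of oxidative metabolism and act with the coactivators PGC-1α and PGC-1β, whose activity the same pathway raises. A comparison of the responses therefore asks for which genes the answer to the agonist differs when both receptors are missing from adipocytes.

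The libraries held 8478310 to 9727167 reads in WT_PBS and 8979123 to 9559239 in WT_CL, fewer than the 12822176 to 13263567 of ERRKO_PBS and the 12468001 to 12954186 of ERRKO_CL. Esrra, the gene of ERRα, was at 41.7 to 83.2 (RPKM after median-ratio scaling, the unit of all levels below) in WT and 5.26 to 8.9 in ERRKO libraries, so the genotypes did not overlap. Esrrg, the gene of ERRγ, was at 8.27, 7.98 and 4.41 in WT_PBS libraries, 8.14, 7.0 and 5.62 in WT_CL, then 3.62, 2.3 and 4.72 in ERRKO_PBS and 6.38, 6.6 and 8.13 in ERRKO_CL. Its ERRKO_CL libraries overlapped the WT libraries, so the level of the whole gene does not separate the genotypes, and whether the values cover the deleted exons is not given in the sources used here. WT_PBS replicate 3 stood apart from the other WT_PBS libraries: all 36 complex I genes, 74 of 76 mitochondrial ribosome genes and 22 of 25 interferon response genes were highest there, against 5130 of 12249 genes in all. The summed level of 19 skeletal muscle markers was 41.0 to 391 in WT_PBS and 73.7 to 517 in WT_CL, against 161 to 3791 in ERRKO_PBS (the highest in replicate 3) and 278 to 2015 in ERRKO_CL, and 0 of the 19 were called for the difference. In bulk tissue fewer cells of a type and less RNA per cell cannot be told apart. With the muscle marker level as a covariate 456 genes were called for the difference in place of 477. Of the 477 genes, 416 stayed called there with the same sign, so the 2 sets were not the same.

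The responses differed between genotypes for 477 of the 12249 genes (3.89%; limma, adjusted p under 0.05), 230 of them higher (1.88%) and 247 lower (2.02%). At an unadjusted p under 0.05 the count was 2299. On the deposited RPKM without further scaling, where the median difference of all genes was 0.09 in place of -0.003, 629 genes passed (5.14%), 475 higher (3.88%) and 154 lower (1.26%), and 376 of the 477 passed there with the same sign. The count also moved with single libraries: it was 243 without WT_PBS replicate 2, 822 without WT_PBS replicate 3, 284, 283 and 225 without WT_CL replicate 1, 2 or 3, 245 without ERRKO_PBS replicate 1, and 283, 235 and 295 without ERRKO_CL replicate 1, 2 or 3. With both ERRKO libraries numbered 3 left out it was 217. No gene of the 477 changed sign in any of 28 alternative settings, and 126 passed in every one of them.

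**Figure D1:**
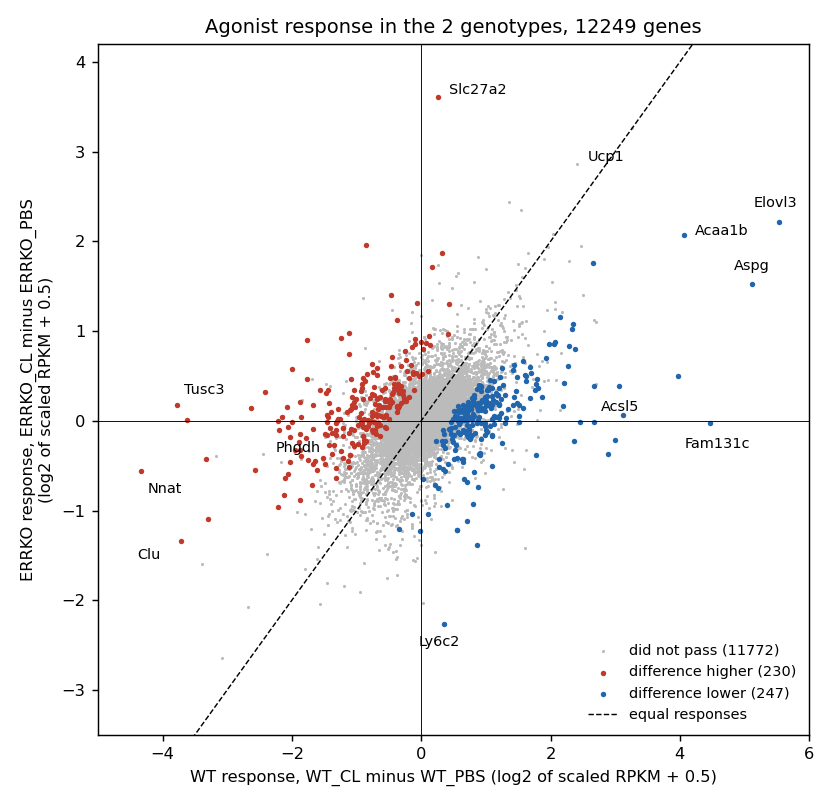
Agonist response of each of 12249 genes in WT (horizontal axis) and ERRKO (vertical axis), both as log2 of scaled RPKM plus 0.5, each point being a gene and the dashed line marking equal responses. The 230 genes with a higher difference lie above the line and the 247 with a lower difference below it, and most of both lie near a vertical value of 0.

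Among the called genes the usual form of the difference was a smaller response in ERRKO. Of the 477 genes 417 had an ERRKO response smaller in size than the WT response, and 430 had a WT response that passed by itself. How many of all genes tested had a smaller ERRKO response was not counted, so the 417 cannot be set against that share. Among all genes 3736 (30.5%) responded in WT, 2198 upward (17.9%) and 1538 downward (12.6%), and 1261 (10.3%) in ERRKO, 818 upward (6.68%) and 443 downward (3.62%). On the deposited scale, where the median WT response was -0.26, the WT counts were 882 upward (7.20%) and 4671 downward (38.1%), and the ERRKO counts 396 upward (3.23%) and 1672 downward (13.7%). On the main scale the ERRKO count lay between 529 (without ERRKO_PBS replicate 1) and 1641 (without WT_PBS replicate 3). The fit shares a residual spread per gene over all groups, so WT libraries also enter the p-values of the ERRKO response. A response that passed in WT only was not enough to pass the test of the difference: of 2900 such genes 2543 did not. Because the WT groups enter both the WT response and the difference, these counts describe the form of the difference and are not separate evidence for it.

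Among the 247 lower genes, 189 rose in WT and did not pass in ERRKO, 37 rose in both but less in ERRKO, 15 fell in ERRKO and did not pass in WT, and 6 rose in WT and fell in ERRKO. Of the 230 higher genes 168 fell in WT and did not pass in ERRKO, 27 rose in ERRKO and did not pass in WT, 16 fell in both but less in ERRKO, and 12 fell in WT and rose in ERRKO. The remaining 7 were 5 with neither response passing and 2 that rose in both, more in ERRKO. The difference was at least 1 on the log2 scale, which is a factor of at least 2 between the fold changes, for 106 higher and 89 lower genes.

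**Figure D2:**
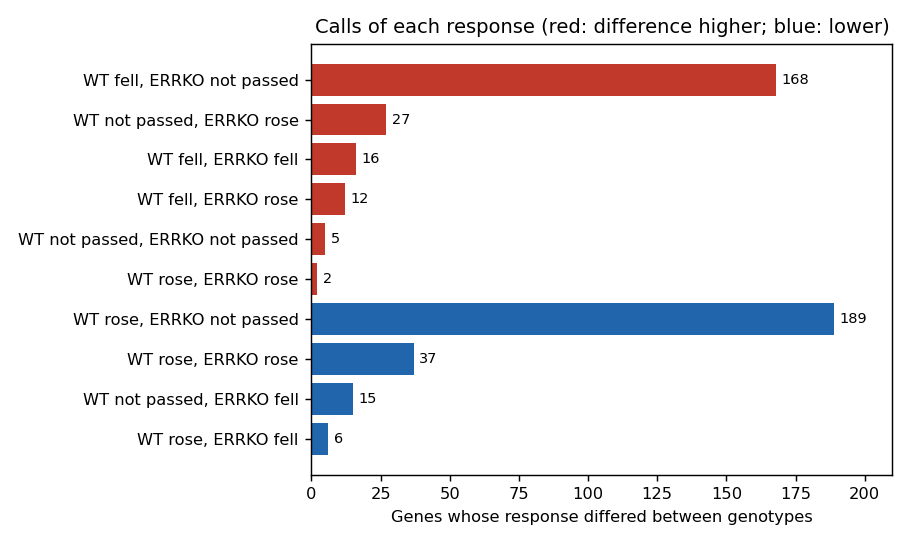
Number of genes (horizontal axis) among the 477 with a difference between responses, by whether the WT and the ERRKO response each passed and in which direction. The longest bars are the 189 genes that rose in WT and the 168 that fell in WT without passing in ERRKO.

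The level at which ERRKO tissue stood varied among the genes that did not pass there. Of the 189 genes that rose in WT and did not pass in ERRKO, 114 had an ERRKO_PBS mean at or below the WT_PBS mean, 48 lay between the WT means and 27 were at or above the WT_CL mean. Of the 168 that fell in WT and did not pass in ERRKO, the ERRKO_PBS mean was at or below the WT_CL mean in 42, between the WT means in 68 and at or above the WT_PBS mean in 58. Genes whose ERRKO response did not pass thus sat below, between or above the WT means. By comparison, the ERRKO_PBS mean was at or below the WT_PBS mean in 6109 of all 12249 genes and in 295 of the 477. WT_PBS enters both these positions and the calls, so the position counts are no separate evidence. In 19 of the 477 genes both ERRKO means were under 0.5, where a response could hardly be seen, against 100 of the 12249 genes tested. Both WT means were under 0.5 in 0 of the 477 genes and in 193 of those tested. Groups without overlap, as given for single genes below, were common. The WT groups did not overlap in 439 of the 477 genes and in 5262 of the 12249 tested. For the ERRKO groups the counts were 238 and 3899.

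Acsl5, a long-chain acyl-CoA synthetase (chr19:55251938-55297720, plus strand, GRCm38), was at 17.6, 16.9 and 17.8 in WT_PBS libraries, 94.7, 170.0 and 89.9 in WT_CL, then 16.3, 15.6 and 14.3 in ERRKO_PBS and 13.9, 16.5 and 15.3 in ERRKO_CL. Every WT_CL library was above every other library, and the 6 ERRKO libraries and the 3 WT_PBS libraries lay close together. The WT response was 2.67 (adjusted p = 3.5e-06), the ERRKO response -0.01 (adjusted p = 0.974) and the difference -2.68 ± 0.27 (SE, adjusted p = 4.9e-04).

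Elovl6, which lengthens palmitate in the synthesis of fatty acids, showed the same form at 18.8, 14.8 and 21.7 in WT_PBS libraries, 77.6, 160.5 and 85.3 in WT_CL, then 16, 10.7 and 6.4 in ERRKO_PBS and 7.86, 9.17 and 15 in ERRKO_CL. The WT groups did not overlap, while the ERRKO groups overlapped. The difference was -2.46 ± 0.48 (SE, adjusted p = 0.018), and it was lost without WT_PBS replicate 2 (adjusted p = 0.051; the other alternatives kept it). Elovl3, the elongase of brown fat that is a standard mark of recruitment, was at 0, 0.156 and 0.0379 in WT_PBS libraries, 25.7, 41.6 and 15.4 in WT_CL, then 0.0476, 0.0517 and 0.0471 in ERRKO_PBS and 2.57, 2.03 and 1.65 in ERRKO_CL. Recovered reads for Elovl3 were 0 to 4 per library in WT_PBS, 343 to 939 in WT_CL, 2 in each ERRKO_PBS library and 60 to 98 in ERRKO_CL. Elovl3 thus rose in both genotypes, and the difference of -3.31 ± 0.39 (SE, adjusted p = 9.0e-04) on a scale with 0.5 added was kept in 26 of 28 alternatives. On the recovered reads DESeq2 called it at -3.36 (adjusted p = 0.017), while edgeR gave a like size, -3.41 with TMM and -3.38 with RLE scaling, that did not pass (adjusted p = 0.235 and 0.243).

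Aspg, which encodes an asparaginase (chr12:112106679-112127559, plus strand), was at 0.836, 0.563 and 0.626 in WT_PBS libraries, 34.5, 59.7 and 31.3 in WT_CL, then 0.311, 0.249 and 0.308 in ERRKO_PBS and 1.26, 2.9 and 1.44 in ERRKO_CL. It rose in both genotypes, with every WT_CL library far above every ERRKO_CL library. The difference was -3.59 ± 0.37 (SE, adjusted p = 5.0e-04). Tesc, which encodes the calcium-binding protein tescalcin, was at 1.07, 1.09 and 0.756 in WT_PBS libraries, 14, 7.51 and 10.6 in WT_CL, then 0.428, 1.08 and 0.329 in ERRKO_PBS and 0.524, 0.166 and 0.33 in ERRKO_CL. It rose in WT, with an ERRKO response of -0.37 (adjusted p = 0.444) and a difference of -3.26 ± 0.38 (SE, adjusted p = 9.0e-04).

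Other large lower differences were those of Arhgef19 at -3.21 ± 0.27 (SE, adjusted p = 1.0e-04), of Fndc5, the precursor of irisin, at -3.47 ± 0.59 (SE, adjusted p = 8.3e-03), of the sorting receptor gene Sorl1 at -2.16 ± 0.41 (SE, adjusted p = 0.014) and of St3gal5, a sialyltransferase of ganglioside synthesis, at -2.03 ± 0.32 (SE, adjusted p = 6.3e-03). Each rose in WT and did not pass in ERRKO. Both ERRKO means of Arhgef19, and of Mup10 described next, were under 0.5, where a response could hardly be seen. The sizes for Arhgef19 and Fndc5 depend on the 0.5 added: DESeq2 on the recovered reads gave -5.66 and -5.90. Mup10, a major urinary protein gene with near-identical copies, had a difference of -3.05 ± 0.69 (SE, adjusted p = 0.034), but its levels varied from 0 to 1.25 within WT_PBS and the call was lost without any single library other than WT_PBS replicate 3, WT_CL replicate 3 or ERRKO_PBS replicate 3 (adjusted p = 0.053 to 0.086). It was also lost in every count test (adjusted p = 0.224 and 0.231 with edgeR, 0.334 with DESeq2), with 0.1 added in place of 0.5 (0.093), without the filter on low values (0.074), with the replicate block (0.058) and with both ERRKO libraries numbered 3 left out (0.067). The difference of Mogat1, a monoacylglycerol acyltransferase, was -2.58 ± 0.65 (SE, adjusted p = 0.049) and was lost without any single library other than WT_PBS replicate 3 (adjusted p = 0.063 to 0.111).

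Ppp1r1a, an inhibitor of protein phosphatase that protein kinase A activates, differed in where ERRKO tissue stood. It was at 4.88, 4.58 and 7.21 in WT_PBS libraries, 32.7, 45.3 and 35.7 in WT_CL, then 39.2, 47.2 and 47.7 in ERRKO_PBS and 68.7, 53.3 and 55 in ERRKO_CL. ERRKO_PBS libraries overlapped WT_CL libraries and were all above WT_PBS, and the difference of -2.28 ± 0.24 (SE, adjusted p = 5.9e-04) came with an ERRKO response of 0.39 (adjusted p = 0.177). Mogat1 had a like position, with an ERRKO_PBS mean of 11.4 against 9.71 in WT_CL.

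Fam131c, a gene of unknown function, had the largest lower difference, -4.49 ± 0.29 (SE, adjusted p = 1.0e-05), a value that depends on the 0.5 added, since the gene was near the limit of detection outside WT_CL. It had 143 to 298 recovered reads per WT_CL library, against 0 to 1 in WT_PBS, 0 to 2 in ERRKO_PBS and 0 to 1 in ERRKO_CL. On these reads edgeR gave -8.96 with TMM and -8.94 with RLE scaling and did not call it (adjusted p = 0.056 and 0.058), while DESeq2, at -9.25, did (adjusted p = 1.2e-04), as did the other alternatives. The promoter of Fam131c is shown here because it holds the element that ERRs bind, TNAAGGTCA, which only 2 of the lower genes with a promoter sequence held. The other was Atp5g3, a gene of the ATP synthase membrane ring, for which a like stretch is shown. Capitals mark the element, which is read on the strand opposite to the gene in both and so appears as its reverse complement, 242 bases before the RefSeq start of Fam131c (chr4:141367942-141367978, plus strand, GRCm38.p6) and 52 bases before that of Atp5g3 (chr2:73911350-73911398, minus strand).
Fam131c: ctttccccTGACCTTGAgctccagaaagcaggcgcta
Atp5g3: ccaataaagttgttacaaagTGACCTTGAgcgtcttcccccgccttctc

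Atp5g3 was at 197, 205 and 266 in WT_PBS libraries, 311, 317 and 330.5 in WT_CL, then 252, 322 and 271 in ERRKO_PBS and 226, 216 and 256 in ERRKO_CL. WT rose and ERRKO did not pass, with a difference of -0.80 ± 0.19 (SE, adjusted p = 0.040) that was lost without any single library other than WT_PBS replicate 3 (adjusted p = 0.052 to 0.098).

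RefSeq promoters of 300 bases (250 before and 50 after the start, GRCm38.p6) were matched for 9763 of the 12249 genes, among them 193 of the 230 higher and 215 of the 247 lower genes. The ERR element TNAAGGTCA was found, on either strand, in 0.871% of all genes, 0.518% of the higher and 0.93% of the lower genes. The cAMP element TGACGTCA was in 3.54%, 2.07% and 3.26% in the same order, the sterol element TCACNCCAC in 1.34%, 0% and 1.4%, and the E box CACGTG in 11.9%, 13.5% and 7.91%. The shares of the ERR and cAMP elements in the lower genes were thus close to those over all genes. A match of letters in this window is not a bound site. Matches were listed by gene for named genes only, which leaves out Hk1 of the lower glycolysis genes described below. Ldha is the named lower glycolysis gene for which the cAMP element was listed. It lies 12 bases before 1 of its 2 RefSeq starts (chr7:46845772-46845803, plus strand), marked by capitals in the stretch that follows.
Ldha: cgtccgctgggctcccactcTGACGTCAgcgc

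Genes of de novo lipogenesis had lower differences as a group than all genes by their median. Of 23 genes tested, 15 rose and 2 fell in WT, while 1 rose and 1 fell in ERRKO, and the median difference was -0.94 against -0.003 over all genes. Only 2 members passed the test of the difference, both lower, against 2.02% called lower over all genes. They were Elovl6 and Pgd, an enzyme of the pentose phosphate pathway, at -1.43 ± 0.31 (SE, adjusted p = 0.030). Pgd lost its call without WT_PBS replicate 1 or 2, WT_CL replicate 3, ERRKO_PBS replicate 1 or 2 or each of the ERRKO_CL libraries (adjusted p = 0.054 to 0.073). The enzymes described next did not pass.

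Fasn, the fatty acid synthase, was at 128, 61.6 and 155 in WT_PBS libraries, 354, 1324 and 728 in WT_CL, then 364, 239 and 135 in ERRKO_PBS and 239.7, 257 and 443 in ERRKO_CL. WT_CL libraries were all above WT_PBS libraries but differed among themselves widely, and ERRKO groups overlapped. Its difference was -2.30 ± 0.70 (SE, adjusted p = 0.096), with a 95% interval -3.83 to -0.76. It passed with DESeq2 at -2.45 (adjusted p = 0.034) and with library weights at -2.47 (adjusted p = 0.040). Acly, which makes cytosolic acetyl-CoA from citrate, had a difference of -1.95 ± 0.65 (SE, adjusted p = 0.128) and Acaca, the carboxylase that makes malonyl-CoA, -1.89 ± 0.64 (SE, adjusted p = 0.131). Slc25a1, which exports citrate from mitochondria, was at -1.72 ± 0.54 (SE, adjusted p = 0.105) and passed with library weights (0.045) and without WT_CL replicate 1 (0.046). Acly, Acaca and Slc25a1 were named after their values were seen. The number of members passing was 7 with library weights, 6 with DESeq2, 0 without WT_PBS replicate 2, 1 without WT_PBS replicate 1, WT_CL replicate 3, ERRKO_PBS replicate 1 or 2 or ERRKO_CL replicate 2 or 3, and 4 without WT_PBS replicate 3 or WT_CL replicate 1. The median stayed between -1.19 and -0.72 in all 28 alternatives.

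Of 31 genes of glucose uptake and glycolysis tested, 16 rose and 1 fell in WT, 3 rose and 2 fell in ERRKO, and 5 passed as lower and 0 as higher, with a median difference of -0.39. On the deposited scale the count was 3 lower and 1 higher. The lower 5 were Eno1, Pfkp, Ldha, Hk2 and Hk1 (the last outside the rule for named genes, given to complete the count), and for Eno1 and Pfkp the responses went in opposite directions. Ldha, lactate dehydrogenase A, was at 273, 233 and 386 in WT_PBS libraries, 524, 706 and 615 in WT_CL, then 239.9, 252 and 212 in ERRKO_PBS and 208, 199 and 271 in ERRKO_CL. WT_CL was above WT_PBS without overlap, and ERRKO did not pass. The difference of -1.13 ± 0.27 (SE, adjusted p = 0.040) was lost without any single library other than WT_PBS replicate 3, WT_CL replicate 1 or ERRKO_CL replicate 3 (adjusted p = 0.057 to 0.096). Hk2, the insulin-responsive hexokinase, had a difference of -0.93 ± 0.21 (SE, adjusted p = 0.033), lost without any single library other than WT_PBS replicate 1 or 3, ERRKO_PBS replicate 2 or ERRKO_CL replicate 3 (adjusted p = 0.061 to 0.082). The count of 5 was 3 without WT_PBS replicate 2 or ERRKO_PBS replicate 3 and 2 without WT_CL replicate 2 or 3, ERRKO_PBS replicate 1 or ERRKO_CL replicate 1 or 2. The median remained negative in all 28 alternatives, from -0.59 to -0.28.

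Triglyceride synthesis had 3 lower genes (Gpd1, Gk and Mogat1) and 1 higher gene (Aqp7) of 17, against 3.89% called over all genes. Gpd1, which makes glycerol phosphate from a glycolytic intermediate, rose from 1014 ± 102 to 2493 ± 288 (SD, n = 3) in WT and was at 383 ± 12.8 and 473 ± 82.3 in ERRKO. Its difference was -1.01 ± 0.22 (SE, adjusted p = 0.032) and was lost without WT_PBS replicate 2, WT_CL replicate 2 or 3, ERRKO_PBS replicate 1 or 3 or ERRKO_CL replicate 2 or 3 (adjusted p = 0.052 to 0.076). Glycerol kinase Gk rose in both genotypes, with a difference of -1.31 ± 0.32 (SE, adjusted p = 0.045) lost without any single library other than WT_PBS replicate 3 or WT_CL replicate 2 (adjusted p = 0.055 to 0.109). The count of 4 members fell to 1 without WT_PBS replicate 2, WT_CL replicate 3, ERRKO_PBS replicate 1 or 3 or ERRKO_CL replicate 2 or 3, and to 2 without WT_PBS replicate 1, WT_CL replicate 1 or 2 or ERRKO_CL replicate 1. Of 24 cholesterol synthesis genes 2 were lower (4 without WT_PBS replicate 3), against 2.02% called lower over all genes. They were Nsdhl at -1.03 ± 0.19 (SE, adjusted p = 0.013) and Idi1 at -0.94 ± 0.23 (SE, adjusted p = 0.047). The call of Idi1 was lost without any single library other than WT_PBS replicate 3 or ERRKO_PBS replicate 3 (adjusted p = 0.058 to 0.115).

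The nuclear genes of the respiratory chain, which WT tissue raised, had 1 called difference at most per complex, against 3.89% over all genes. In WT 24 of 36 complex I genes rose and in ERRKO 3, yet 0 of 36 passed for the difference, whose median was -0.31. The smallest adjusted p was that of Ndufa11, an accessory subunit, at -0.55 ± 0.16 (SE, adjusted p = 0.075). This count of 0 was 13 with library weights, 4 under quantile normalization and 2 with DESeq2 (Ndufa9 at adjusted p = 0.027 and Ndufa11 at 0.050). Of 14 genes of complexes II and III 13 rose in WT, 3 in ERRKO and 0 passed for the difference (median -0.36), with Uqcrc2, a core protein of complex III, at -0.62 ± 0.17 (SE, adjusted p = 0.070). Complex IV had 9, 1 and 0 of 16 in the same order (median -0.19, which turned to 0.08 under quantile normalization), and ATP synthase had 8, 1 and 1 of 16 (median -0.23), the called gene being Atp5g3. Without WT_PBS replicate 3, the library in which these genes were highest among WT_PBS, 13 complex I genes and 6 genes of complexes II and III passed, and 3 of ATP synthase, which had 0 without any other single library.

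Fuel oxidation upstream of the chain had 3 lower genes of 32 in the list of the TCA cycle and pyruvate, against 2.02% over all genes. In this list 26 rose in WT and 16 in ERRKO (median -0.30). Dlst, a subunit of the oxoglutarate dehydrogenase complex, was at 297, 259 and 321 in WT_PBS libraries, 603, 601 and 613 in WT_CL, then 51, 56.2 and 55.8 in ERRKO_PBS and 75.1, 71.5 and 77.7 in ERRKO_CL. Both genotypes rose without overlap, from a lower level in ERRKO. The difference was -0.60 ± 0.13 (SE, adjusted p = 0.032), while Pdhb of pyruvate dehydrogenase was at -1.24 ± 0.31 (SE, adjusted p = 0.046) and the mitochondrial pyruvate carrier gene Mpc2 at -1.13 ± 0.26 (SE, adjusted p = 0.037). Dlst lost its call without any single library other than WT_PBS replicate 3 (adjusted p = 0.050 to 0.084). Mpc2 kept it only without WT_PBS replicate 3 or ERRKO_PBS replicate 1 (0.054 to 0.089 otherwise). Pdhb kept it only without WT_PBS, ERRKO_PBS or ERRKO_CL replicate 3 (0.051 to 0.107 otherwise). The count of 3 became 8 without WT_PBS replicate 3, 1 without WT_PBS replicate 1, ERRKO_PBS replicate 1 or 3 or ERRKO_CL replicate 3, and 0 without any other single library. The gene left without WT_PBS replicate 1 was Ogdh (adjusted p = 0.041), not 1 of these 3.

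Of 76 genes of the mitochondrial ribosome, 50 rose in WT, 8 rose in ERRKO and 3 passed for the difference, all lower (median -0.27), against 3.89% called over all genes: Mrps27 at -1.08 ± 0.15 (SE, adjusted p = 2.6e-03), Mrps5 at -0.63 ± 0.12 (SE, adjusted p = 0.017) and Mrpl38 at -0.65 ± 0.14 (SE, adjusted p = 0.024). The count of 3 is thus near the share over all genes, and it was 19 with library weights, 21 without WT_PBS replicate 3 and 2 to 4 without any other single library. Mrpl38 lost its call without WT_PBS replicate 2, WT_CL replicate 2, ERRKO_PBS replicate 3 or ERRKO_CL replicate 2 or 3 (adjusted p = 0.053 to 0.062). Mrps27 shares 24.2% of its exon bases with another gene, so its value is uncertain. Of 28 genes of mitochondrial DNA maintenance and biogenesis 3 were lower, among them Tfb2m, a transcription factor of the mitochondrial genome. Afg3l2, a protease of the inner membrane, was at -0.54 ± 0.11 (SE, adjusted p = 0.018) and lost its call without WT_CL replicate 3 or ERRKO_CL replicate 2 (adjusted p = 0.052 to 0.056). The count of 3 was 6 without WT_PBS replicate 3 and 1 without WT_CL replicate 3 or ERRKO_CL replicate 2.

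Tfb2m was at 20.5, 17.9 and 17.4 in WT_PBS libraries, 40.7, 41.2 and 41.8 in WT_CL, then 7.11, 7.38 and 7.38 in ERRKO_PBS and 10.02, 10.7 and 9.59 in ERRKO_CL. It rose in both genotypes without overlap, and more in WT, with a difference of -0.69 ± 0.11 (SE, adjusted p = 7.0e-03). Tfam, which packages mitochondrial DNA, had a difference of -0.61 ± 0.14 (SE, adjusted p = 0.032) that was lost without any single library other than WT_PBS replicate 3 or ERRKO_CL replicate 1 (adjusted p = 0.050 to 0.074). Letmd1, a mitochondrial protein that brown fat needs for heat production, was at 82.3, 77.8 and 85.5 in WT_PBS libraries, 263, 240.4 and 246 in WT_CL, then 18.2, 19.4 and 17.8 in ERRKO_PBS and 27.7, 26.9 and 25 in ERRKO_CL. The 4 groups did not overlap, and the difference was -1.09 ± 0.11 (SE, adjusted p = 4.9e-04). Letm1, a cation exchanger of the inner mitochondrial membrane that was named after its values were seen, had a difference of -1.65 ± 0.18 (SE, adjusted p = 7.1e-04).

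Fatty acid oxidation had similar counts in both genotypes: of 27 genes 20 rose in WT and 21 in ERRKO, 2 were higher (Slc27a2 and Cpt1b), 1 lower (Acsl5), and the median difference was 0.05. Thermogenic and brown adipocyte genes were alike, with 12 of 24 rising in WT and 14 in ERRKO, 3 higher (Slc27a2, Cpt1b and Pank1), 3 lower (Elovl3, Gk and Letmd1) and a median of 0.03 that turned negative in 6 of 28 alternatives. The median of fatty acid oxidation turned negative without WT_PBS replicate 3 or ERRKO_PBS replicate 1, and 6 of its genes passed without the former. Slc27a2 and Cpt1b stand in both lists. Each list count in this paragraph stands against 3.89% called over all genes, 1.88% higher and 2.02% lower. On the deposited scale 4 thermogenic genes were higher and 2 lower. Whether these lists differ from the others was not tested. For branched-chain amino acid breakdown 17 of 19 genes rose in WT and 15 in ERRKO, with 1 higher (Auh) and 2 lower, Dbt at -0.87 ± 0.15 (SE, adjusted p = 8.8e-03) and Mccc1 at -0.92 ± 0.20 (SE, adjusted p = 0.028). Mccc1, of leucine breakdown, lost its call without WT_PBS replicate 1 or 2, WT_CL replicate 2 or 3 or ERRKO_CL replicate 1, 2 or 3 (adjusted p = 0.055 to 0.072). In the peroxisome list 23 of 35 rose in WT and 19 in ERRKO, and Acaa1b, a thiolase whose reads may be shared with its paralog Acaa1a, was lower at -1.99 ± 0.38 (SE, adjusted p = 0.016) although it rose in both. Acot8, a peroxisomal thioesterase, was lower at -0.82 ± 0.20 (SE, adjusted p = 0.043), lost without any single library other than WT_PBS replicate 3 (adjusted p = 0.070 to 0.095). Without WT_PBS replicate 3, 7 branched-chain and 3 peroxisome genes passed. Of 28 lipolysis and lipid droplet genes 2 were higher, Slc27a2 and Cideb, whose recovered reads were 137 to 176 per library in WT_PBS against 51 to 76 in WT_CL and 0 to 7 in ERRKO libraries. Cideb had a difference of 1.25 ± 0.27 (SE, adjusted p = 0.029), 76.3% of its exon bases lie in another gene, and its call was lost without WT_PBS replicate 2, WT_CL replicate 1 or 2, ERRKO_PBS replicate 1 or ERRKO_CL replicate 1 or 3 (adjusted p = 0.054 to 0.066).

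**Figure D3:**
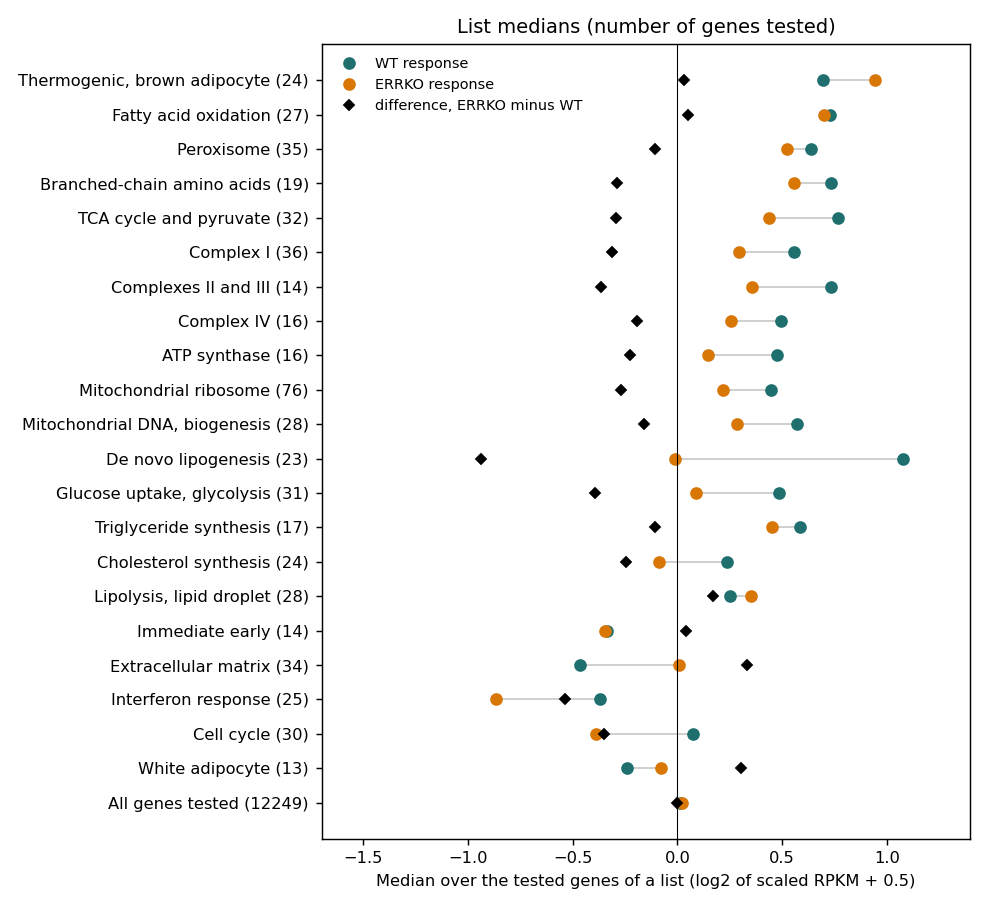
Median over the tested genes of each list (number in brackets) of the WT response, the ERRKO response and their difference per gene, as log2 of scaled RPKM plus 0.5 on the horizontal axis. De novo lipogenesis has the widest gap between the genotypes (difference -0.94), fatty acid oxidation a narrow gap (0.05), and all genes together lie at -0.003.

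Ucp1, the uncoupling protein, rose in both genotypes and did not pass for the difference. It was at 485, 316 and 539 in WT_PBS libraries, 2968, 1839.7 and 2255 in WT_CL, then 3.27, 3.96 and 6.38 in ERRKO_PBS and 27.9, 27.7 and 54.5 in ERRKO_CL. All ERRKO libraries were far below all WT libraries, and in each genotype the agonist libraries were above the PBS libraries. The WT response was 2.41 (adjusted p = 1.8e-04) and the ERRKO response 2.86 (adjusted p = 4.4e-04), and their difference of 0.45 ± 0.43 (SE, adjusted p = 0.646), 95% interval -0.49 to 1.4, did not pass. In absolute terms the ERRKO rise minus the WT rise was -1875 ± 337 (SE of the difference of mean differences). The interval of the log2 difference includes both a smaller and a larger fold in ERRKO.

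Dio2, the deiodinase that activates thyroid hormone, rose in WT by 2.04 (adjusted p = 1.4e-03) and in ERRKO by 2.08 (adjusted p = 5.0e-03), with a difference of 0.03 ± 0.51 (SE, adjusted p = 0.982) and a 95% interval -1.07 to 1.14. The sign changed in 8 of 28 alternatives, and on the recovered reads the value was 1.26 and 1.29 with edgeR and 1.30 with DESeq2, above that interval and not past the threshold (adjusted p = 0.319 to 0.344). Cidea, which acts at lipid droplets, had a difference of 1.07 ± 0.33 (SE, adjusted p = 0.098), 95% interval 0.35 to 1.79. It passed in 5 of 28 alternatives, the deposited scale (adjusted p = 0.041), quantile normalization (0.010), library weights (0.036), DESeq2 (0.023) and without ERRKO_PBS replicate 2 (0.018). Ppargc1a, which encodes PGC-1α, was at -0.07 ± 0.43 (SE, adjusted p = 0.963), 95% interval -1.01 to 0.88. The receptors that were deleted gave -0.77 ± 0.23 (SE, adjusted p = 0.092) for Esrra and 0.90 ± 0.36 (SE, adjusted p = 0.199) for Esrrg. Esrra passed with library weights and with DESeq2 (adjusted p = 0.024 in each), with the replicate block (0.049) and without ERRKO_PBS replicate 2 (6.5e-03). Of 26 genes in the list of ERR and PGC-1 regulators 0 passed. Fgf21, a hormone that stimulated brown fat can secrete, had a mean RPKM of 0.0316 and was not tested.

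Of 31 genes of the β-adrenergic pathway itself 6 rose and 6 fell in WT, 3 rose and 1 fell in ERRKO, and 1 passed for the difference, near the 3.89% over all genes. This was Gnas, which encodes the stimulatory G protein subunit and shares 22% of its exon bases with other genes. Gnas was at 166, 146 and 154 in WT_PBS libraries, 525, 332 and 472 in WT_CL, then 78, 86.3 and 81.9 in ERRKO_PBS and 99, 91 and 91.8 in ERRKO_CL. WT rose without overlap, ERRKO did not pass, and the difference was -1.29 ± 0.20 (SE, adjusted p = 5.9e-03). The β3 receptor gene Adrb3, whose exons overlap another gene by 24.9%, had a mean of 21.1 in WT_PBS against 37.3 in WT_CL and of 218 in ERRKO_PBS against 175 in ERRKO_CL, and its difference of -1.09 ± 0.37 (SE, adjusted p = 0.137) did not pass (95% interval -1.91 to -0.27).

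**Figure D4:**
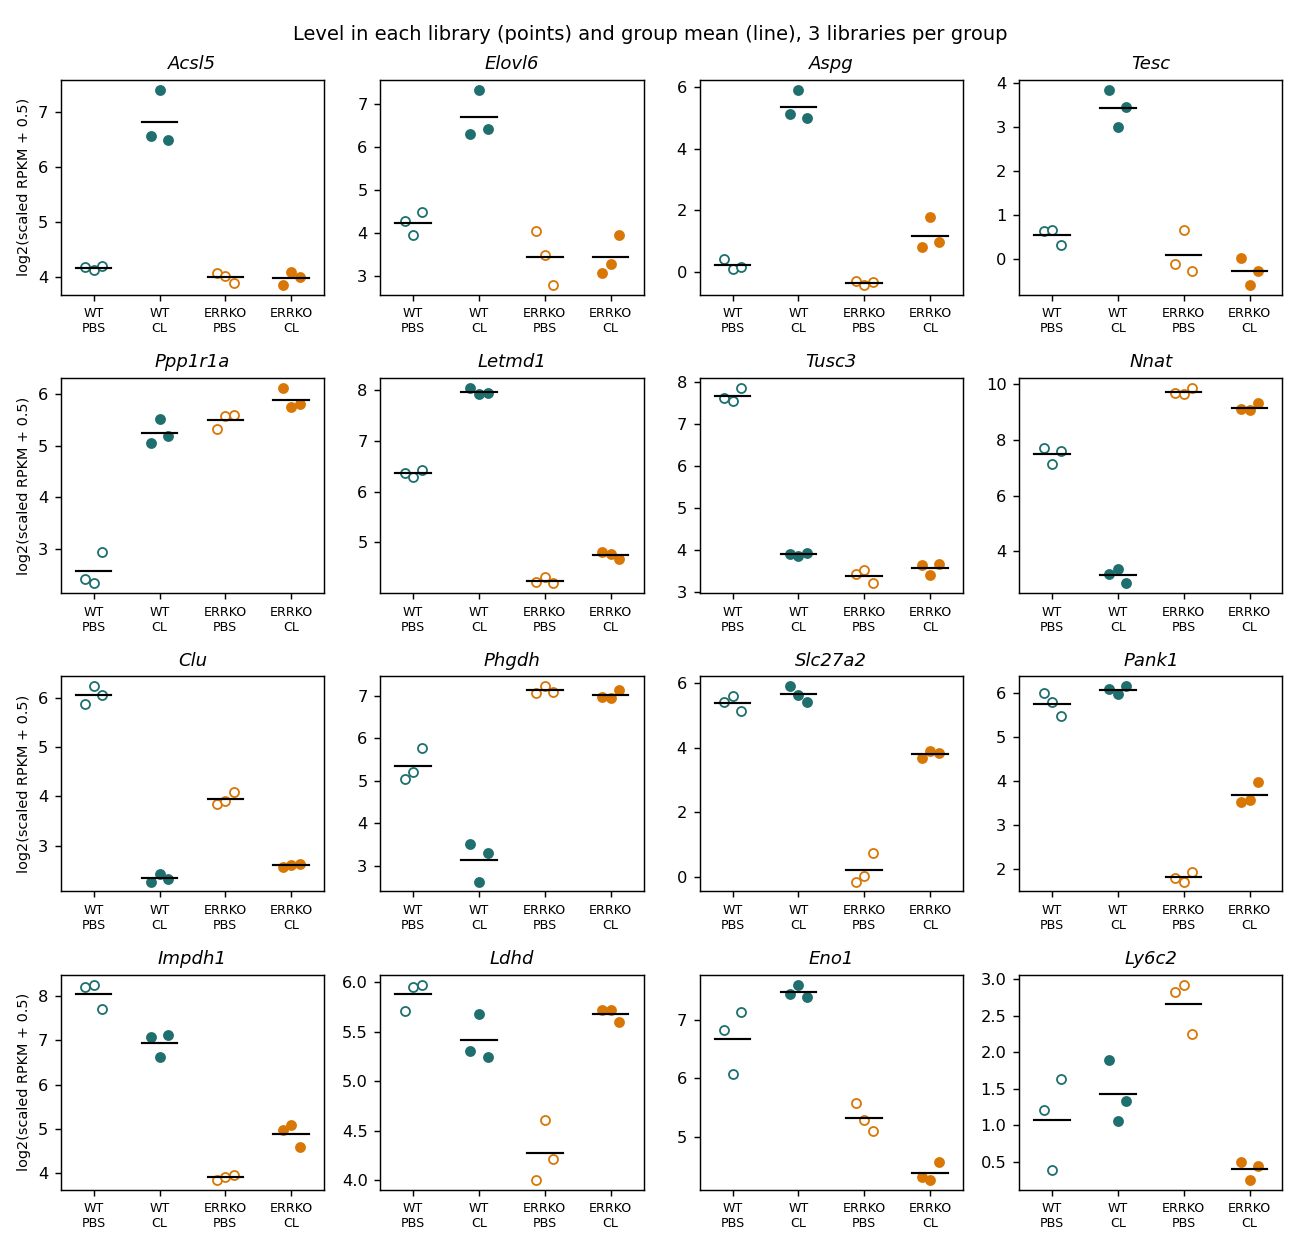
Level in each library (points, 3 per group) and group mean (lines) of 16 genes, as log2 of scaled RPKM plus 0.5, open points for PBS and filled points for CL316,243, WT in green and ERRKO in orange. Acsl5 and Elovl6 are high in WT_CL, Tusc3 falls in WT to near the level that ERRKO has in both groups, and Slc27a2 and Pank1 rise in ERRKO.

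The higher genes were led by Tusc3, a subunit of the complex that attaches sugars to proteins (chr8:39005845-39165114, plus strand), which had the smallest p of all genes. It was at 198, 186 and 233 in WT_PBS libraries, 14.5, 14 and 14.9 in WT_CL, then 10.3, 11 and 8.79 in ERRKO_PBS and 12, 10.1 and 12.2 in ERRKO_CL. WT fell to just above the level that ERRKO libraries had in both groups, and the ERRKO groups overlapped. The WT response was -3.78 (adjusted p = 2.0e-09), the ERRKO response 0.18 (adjusted p = 0.353) and the difference 3.96 ± 0.16 (SE, adjusted p = 1.3e-07).

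Nnat, an imprinted gene whose product sits in the endoplasmic reticulum (chr2:157560078-157562522, plus strand), was at 209, 139 and 196 in WT_PBS libraries, 8.72, 9.85 and 6.77 in WT_CL, then 811, 795 and 933 in ERRKO_PBS and 547, 540.4 and 633 in ERRKO_CL. It fell in WT without overlap, and ERRKO libraries were lower under the agonist as well, also without overlap, although that response did not pass at -0.56 (adjusted p = 0.053). The difference was 3.78 ± 0.23 (SE, adjusted p = 8.2e-06). On the linear scale its sign was the opposite: the ERRKO change in mean level minus the WT change was -99.99 ± 56.9 (SE). Nnat was the single gene of 13 white adipocyte genes to pass, against 3.89% called over all genes. Of these 13, 5 fell in WT and 4 in ERRKO, and the median difference of 0.30 turned negative without WT_PBS replicate 3 and with both ERRKO libraries numbered 3 left out.

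Clu, the secreted chaperone clusterin, was at 58.5, 74.8 and 65.9 in WT_PBS libraries, 4.32, 4.87 and 4.48 in WT_CL, then 13.8, 14.4 and 16.5 in ERRKO_PBS and 5.42, 5.59 and 5.69 in ERRKO_CL. It fell in both genotypes without overlap, from a lower level in ERRKO under PBS to one just above WT under the agonist, and the difference was 2.38 ± 0.14 (SE, adjusted p = 8.2e-06). Phgdh, the first enzyme of serine synthesis, was at 32.3, 36.6 and 54.3 in WT_PBS libraries, 10.9, 5.65 and 9.26 in WT_CL, then 134, 149 and 135 in ERRKO_PBS and 125, 124 and 139.9 in ERRKO_CL. It fell in WT, and ERRKO libraries were above all WT libraries in both groups without a called response. Its difference was 2.09 ± 0.31 (SE, adjusted p = 3.9e-03). Phgdh was the single higher gene of 22 serine, one-carbon and integrated stress response genes, against 1.88% called higher over all genes.

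Immediate early genes, which signalling raises within minutes, gave 2 higher genes of 14, against 1.88% called higher over all genes. Nr4a1, an orphan nuclear receptor, was at 25.2, 22.8 and 18.5 in WT_PBS libraries, 4.28, 2.83 and 2.49 in WT_CL, then 2.13, 1.0 and 2.15 in ERRKO_PBS and 3.47, 1.64 and 1.15 in ERRKO_CL. WT_PBS stood above the other 3 groups, which overlapped. The difference was 2.78 ± 0.44 (SE, adjusted p = 6.3e-03). Jun, a subunit of the AP-1 transcription factor, had a difference of 1.44 ± 0.35 (SE, adjusted p = 0.042) that was lost without any single library other than WT_CL replicate 1 or ERRKO_PBS replicate 1 (adjusted p = 0.051 to 0.089). Gadd45b, a stress-inducible gene outside the list, had a WT response of -3.33 (adjusted p = 1.6e-05) and an ERRKO response of -0.42 (adjusted p = 0.406), with a difference of 2.91 ± 0.41 (SE, adjusted p = 3.2e-03). Dissection followed the final injection by 24 h, so these are not levels at the time of stimulation.

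Other higher genes among the largest were Lctl, of the klotho family, at 2.57 ± 0.35 (SE, adjusted p = 2.8e-03), Cryab, a small heat shock protein, at 2.20 ± 0.36 (SE, adjusted p = 6.9e-03), Cdsn, corneodesmosin, at 2.23 ± 0.24 (SE, adjusted p = 6.2e-04), Plekhg6 at 2.17 ± 0.40 (SE, adjusted p = 0.013) and the antisense RNA 2610016A17Rik at 2.74 ± 0.35 (SE, adjusted p = 1.6e-03). Ltc4s, leukotriene C4 synthase, was at 2.66 ± 0.44 (SE, adjusted p = 7.5e-03), with 26.4% of its exon bases in another gene. Akr1cl, an aldo-keto reductase, had a difference of 3.62 ± 0.42 (SE, adjusted p = 9.0e-04), but its recovered reads were 62 to 219 per library in WT_PBS, 0 to 2 in WT_CL and 0 to 1 in both ERRKO groups. An ERRKO response could not be measured there, and the value depends on the 0.5 added. On the recovered reads the fitted value was 7.55 with DESeq2, which called it (adjusted p = 2.9e-03), and 7.32 and 7.34 with edgeR, which did not (adjusted p = 0.128 with TMM and 0.127 with RLE scaling). The lincRNA Gm9961 had 23 to 46 reads per library in WT_PBS, 1 to 8 in WT_CL and 0 in all 6 ERRKO libraries, so no ERRKO fold is given. Its call was lost in every count test of these reads (adjusted p = 1.000 with edgeR under either scaling and 0.442 with DESeq2) and with both ERRKO libraries numbered 3 left out (adjusted p = 0.064).

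A group of 27 higher genes rose in ERRKO and did not pass in WT. Slc27a2, a very long-chain acyl-CoA synthetase and fatty acid transport protein (chr2:126552407-126588243, plus strand), was at 42.6, 48.1 and 34.9 in WT_PBS libraries, 59.5, 48.9 and 42.7 in WT_CL, then 0.408, 0.528 and 1.17 in ERRKO_PBS and 12.5, 14.6 and 13.8 in ERRKO_CL. WT groups overlapped, whereas ERRKO rose without overlap and without reaching the WT libraries. The ERRKO response was 3.60 (adjusted p = 5.8e-06), the WT response 0.26 (adjusted p = 0.364) and the difference 3.34 ± 0.29 (SE, adjusted p = 1.4e-04). Pank1, a pantothenate kinase of coenzyme A synthesis, was at 63.9, 54.9 and 44.3 in WT_PBS libraries, 67.6, 63 and 70.7 in WT_CL, then 3.02, 2.8 and 3.31 in ERRKO_PBS and 11.1, 11.3 and 15.3 in ERRKO_CL. It too rose in ERRKO without reaching WT, with a difference of 1.56 ± 0.20 (SE, adjusted p = 1.9e-03).

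Further genes of this kind were Auh, a hydratase of leucine breakdown, at 0.77 ± 0.14 (SE, adjusted p = 0.012) and Acad12, of the acyl-CoA dehydrogenase family and named after its values were seen, at 0.92 ± 0.13 (SE, adjusted p = 4.0e-03). Cpt1b, the muscle-type carnitine palmitoyltransferase, rose in both, by 0.43 (adjusted p = 0.036) in WT and 1.30 (adjusted p = 4.4e-04) in ERRKO, and its difference was 0.87 ± 0.20 (SE, adjusted p = 0.035). On the linear scale the Cpt1b change was smaller in ERRKO (-50.3 ± 14), 81.4% of its exon bases lie in another gene, and the call was lost without any single library other than WT_PBS replicate 3, ERRKO_PBS replicate 3 or ERRKO_CL replicate 1 (adjusted p = 0.059 to 0.086). The linear and log2 signs were opposite in 8 of the 477 genes, including Nnat, Cpt1b and Pank1.

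Apcdd1, Negr1 and Kcnk2 were also among these 8 and were named after their values were seen. Apcdd1, an inhibitor of Wnt signalling, fell in both genotypes with a log2 difference of 1.47 ± 0.21 (SE, adjusted p = 3.0e-03), while its mean fell from 9.29 to 1.84 in WT and from 41.4 to 27.1 in ERRKO. Kcnk2, a potassium channel, rose from 0.417 to 3.14 in WT and from 12.8 to 23.5 in ERRKO, with a log2 difference of -1.13 ± 0.21 (SE, adjusted p = 0.015) that was lost with a pseudocount of 1 (adjusted p = 0.056). Negr1, a cell adhesion molecule, was at -1.20 ± 0.18 (SE, adjusted p = 4.5e-03). For such genes, whose ERRKO level was well above that of WT, a smaller fold went with a change in mean RPKM that was not smaller.

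For 18 genes both responses passed and had opposite directions. Impdh1, an enzyme of guanine nucleotide synthesis (chr6:29200434-29216364, minus strand), was at 292, 304 and 207 in WT_PBS libraries, 133, 97.7 and 138 in WT_CL, then 13.9, 14.5 and 15.1 in ERRKO_PBS and 30.7, 33.6 and 23.7 in ERRKO_CL. WT fell and ERRKO rose, both without overlap, with all ERRKO libraries below all WT libraries. The WT response was -1.12 (adjusted p = 6.6e-04), the ERRKO response 0.98 (adjusted p = 5.8e-03) and the difference 2.09 ± 0.25 (SE, adjusted p = 9.0e-04). Ldhd, D-lactate dehydrogenase of mitochondria, was at 51.8, 61.6 and 62.5 in WT_PBS libraries, 39.1, 50.7 and 37.5 in WT_CL, then 15.5, 23.9 and 18 in ERRKO_PBS and 52.1, 52.3 and 47.8 in ERRKO_CL. ERRKO_PBS was below all other groups and ERRKO_CL overlapped both WT groups, and the difference was 1.87 ± 0.22 (SE, adjusted p = 9.0e-04), with the reserve that 42.2% of its exon bases lie in another gene.

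Among the other genes that fell in WT and rose in ERRKO were Clpb, a disaggregase of the mitochondrial intermembrane space, at 0.92 ± 0.12 (SE, adjusted p = 1.6e-03), the endoplasmic reticulum chaperone gene Hyou1 at 0.83 ± 0.14 (SE, adjusted p = 7.2e-03), the glycerol channel gene Aqp7 at 1.29 ± 0.21 (SE, adjusted p = 6.9e-03), the poly(A)-binding protein gene Pabpc1 at 0.67 ± 0.12 (SE, adjusted p = 9.1e-03), carbonic anhydrase Car1 at 1.27 ± 0.23 (SE, adjusted p = 0.011) and the noncoding RNA Snhg11 at 1.87 ± 0.25 (SE, adjusted p = 2.4e-03). Zrsr1, Cyp4b1, Pnrc1 and Mpv17 made up the 12, with differences from 0.46 to 0.87. The call of Cyp4b1 was lost without WT_PBS replicate 2, WT_CL replicate 1, 2 or 3, ERRKO_PBS replicate 1 or 3 or ERRKO_CL replicate 2 or 3 (adjusted p = 0.050 to 0.065), that of Mpv17 without WT_PBS replicate 2, WT_CL replicate 2 or 3, ERRKO_PBS replicate 1 or ERRKO_CL replicate 1 or 2 (adjusted p = 0.050 to 0.068) and that of Pnrc1 without WT_CL replicate 2 or 3 or ERRKO_PBS replicate 1 (adjusted p = 0.055 to 0.057).

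The 6 that rose in WT and fell in ERRKO included 2 genes of glycolysis. Eno1, enolase, was at 112, 67.1 and 139 in WT_PBS libraries, 173, 193 and 166 in WT_CL, then 47.1, 38.5 and 33.7 in ERRKO_PBS and 19.4, 18.8 and 23.4 in ERRKO_CL. Every WT_CL library was above every WT_PBS library and every ERRKO_CL library below every ERRKO_PBS library. The difference was -1.73 ± 0.31 (SE, adjusted p = 0.011). Pfkp, a phosphofructokinase, changed by 0.64 (adjusted p = 1.6e-03) in WT and -0.43 (adjusted p = 0.034) in ERRKO, with a difference of -1.07 ± 0.16 (SE, adjusted p = 4.5e-03).

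The remaining 4 were Rrm1, the large subunit of ribonucleotide reductase, at -0.88 ± 0.16 (SE, adjusted p = 0.011), the homeobox gene Hoxc4 at -1.30 ± 0.20 (SE, adjusted p = 5.7e-03), Pnp2, a purine nucleoside phosphorylase, at -2.25 ± 0.41 (SE, adjusted p = 0.012), and Atf5, a transcription factor of the integrated stress response, at -0.90 ± 0.19 (SE, adjusted p = 0.024). Reads of Pnp2 may be shared with its paralog Pnp, whose difference was -0.91 ± 0.23 (SE, adjusted p = 0.046). Atf5 lost its call without WT_CL replicate 2 or 3 or ERRKO_CL replicate 2 or 3 (adjusted p = 0.054 to 0.063), and Pnp without any single library other than WT_PBS replicate 3 (adjusted p = 0.057 to 0.108).

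**Figure D5:**
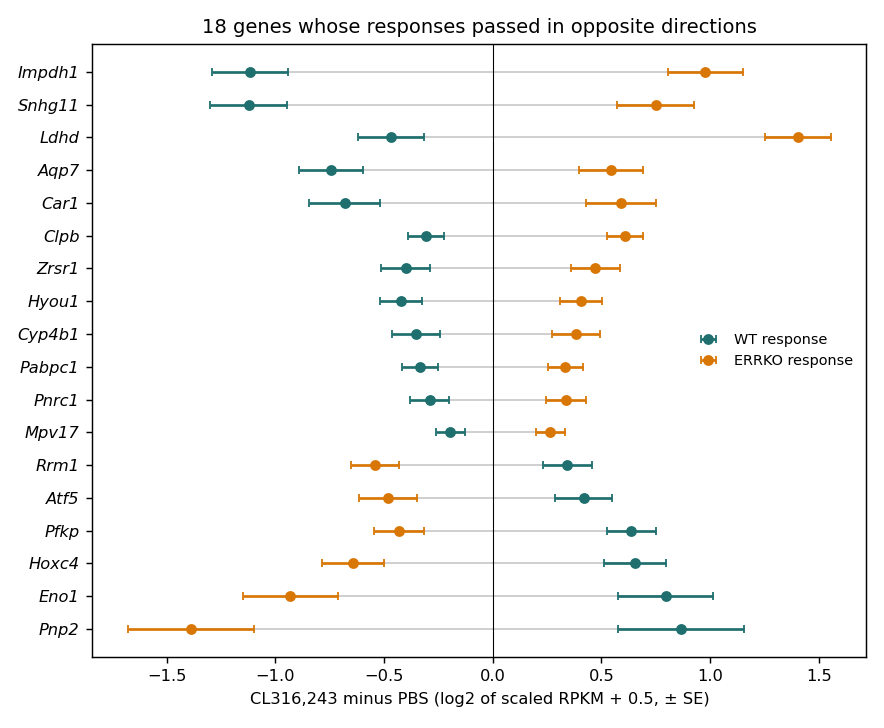
Response to CL316,243 (log2 of scaled RPKM plus 0.5, ± SE from the fit of all 12 libraries) in WT and ERRKO for the 18 genes whose responses both passed in opposite directions. In the upper 12 genes WT fell and ERRKO rose, and in the lower 6 WT rose and ERRKO fell.

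A further 15 lower genes fell in ERRKO and did not pass in WT. Ly6c2, a surface antigen of monocytes and lymphocytes, was at 1.82, 0.814 and 2.6 in WT_PBS libraries, 3.23, 1.58 and 2.02 in WT_CL, then 6.55, 7.1 and 4.26 in ERRKO_PBS and 0.918, 0.692 and 0.861 in ERRKO_CL. ERRKO_PBS libraries were the highest and ERRKO_CL libraries were below ERRKO_PBS without overlap. The difference was -2.61 ± 0.42 (SE, adjusted p = 6.7e-03), while the near-identical Ly6c1 was at 0.03 ± 0.14 (SE, adjusted p = 0.941), so the assignment of reads between them is uncertain. Samd9l, an interferon-induced gene named after its values were seen, was at -0.90 ± 0.16 (SE, adjusted p = 0.011), and Dhx58, a sensor of viral RNA, at -0.92 ± 0.22 (SE, adjusted p = 0.041).

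Of 25 interferon response genes 6 fell in WT and 21 in ERRKO, and the median difference was -0.53. Dhx58 alone passed, a count near the share of 3.89% over all genes. Irf7, a transcription factor of the pathway, was at 8.39, 9.06 and 20.04 in WT_PBS libraries, 8.81, 8.29 and 9.36 in WT_CL, then 30.2, 20.7 and 27.1 in ERRKO_PBS and 8.18, 8.73 and 9.06 in ERRKO_CL. ERRKO_PBS libraries were the highest, and WT_PBS replicate 3 was the WT_PBS library nearest to them. Its difference was -1.15 ± 0.36 (SE, adjusted p = 0.103). Without WT_PBS replicate 3, 10 of the list passed. Without any other single library the count was 0, except without ERRKO_PBS replicate 2, where it stayed 1. The summed level of 13 T and B cell markers was 8.98 to 14.8 in ERRKO_PBS, 3.501 to 6.95 in ERRKO_CL, 5.94 to 18.3 in WT_PBS and 4.26 to 8.67 in WT_CL, with 0 of 7 tested markers called for the difference. The part of immune cells in these values was not tested.

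The extracellular matrix and cell cycle lists each gave 1 call, near the 3.89% called over all genes. Of 34 extracellular matrix genes 14 fell in WT and 3 in ERRKO, the median difference was 0.33, and elastin Eln was the single called gene at 0.84 ± 0.21 (SE, adjusted p = 0.047), lost without any single library other than WT_PBS replicate 3 (adjusted p = 0.050 to 0.12). Without WT_PBS replicate 1 the count of that list was 8. Of 30 cell cycle genes Rrm1 alone passed (4 genes without WT_PBS replicate 3), with a median of -0.35, and Mki67, the proliferation marker, was at -1.13 ± 0.31 (SE, adjusted p = 0.067). S100a8, a calcium-binding protein of neutrophils, was at 9.6, 5.04 and 5.09 in WT_PBS libraries, 2.5, 2.34 and 5.82 in WT_CL, then 3.54, 6.81 and 3.61 in ERRKO_PBS and 19.8, 17.8 and 18.6 in ERRKO_CL. ERRKO_CL stood above the other groups, and the difference was 2.80 ± 0.46 (SE, adjusted p = 7.1e-03), while its partner S100a9 was at 1.00 ± 0.70 (SE, adjusted p = 0.505). Summed markers of neutrophils and mast cells, which include both genes, were 32.8 to 42.4 in ERRKO_CL and at most 29.5 elsewhere. Without S100a8 itself the sum was 14.7 to 22.6 in ERRKO_CL and overlapped that of WT_CL, 16.7 to 23.7.

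Macrophage markers fell in both genotypes, 10 of 15 in WT and 3 in ERRKO, and their sum was 321 to 625 in WT_PBS against 176 to 239 in WT_CL. In ERRKO the sum was 342 to 397 with PBS against 198 to 251 with the agonist. None of the 15 was called for the difference. Of 7 erythroid markers 7 fell in WT and 0 passed in ERRKO, again with none called for the difference. The sum of all 9 erythroid markers with values, tested or not, was lower with the agonist in both genotypes without overlap. It was 940.2 to 1041 in WT_PBS and 223 to 701 in WT_CL, then 712 to 983 in ERRKO_PBS and 470.5 to 632 in ERRKO_CL. Of the listed markers, 0 of 14 endothelial, 0 of 12 stromal, 0 of 8 smooth muscle and 0 of 7 nerve genes were called.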

How the data were processed

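RNA-seq of brown adipose tissue gave 12 libraries. Per the submitters' processing notes, the tools were STAR 2.3.0, edgeR, cutadapt and bcl2fastq 2.16.0.10, with builds mm9 and mm10. Counter, annotation and strand use: not given in the sources used here. The authors deposited RPKM for 24452 genes and a second table, of 12380 genes, whose values are a linear signal, reads divided by a scaled library size; 100% of these came out as whole reads within 0.01, and 9 stray cells of it were not used.

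RPKM was scaled by median ratios and 0.5 added before log2. Fold changes on this scale understate those of low genes. The 12249 genes whose mean RPKM reached 0.5 were fitted with limma 3.58.1 (R 4.3.3; 4 group means, trend, 8 residual degrees of freedom, two-sided). Adjusted p is Benjamini-Hochberg over these genes, threshold 0.05. Recovered reads were tested with edgeR 4.0.16 and DESeq2 1.42.0 as alternatives. Named are the 15 largest differences in each direction at a mean RPKM of at least 1, all genes with opposite called responses, up to 4 genes of smallest p per list and 10 fixed genes, with others said to be chosen after their values were seen. Members and lists were chosen with earlier results of these data known. Coordinates are from GENCODE M21 (GRCm38), promoters from RefSeq.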

Additional observations from a re-analysis of the deposited data

Results flagged for a closer look

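The agonist response differed between WT and ERRKO, by the limma test of the difference itself, in 477 of 12249 genes, and 85 of these are named. Values are the log2 response in ERRKO minus that in WT. The log2 differences furthest below 0 were Fam131c -4.49, Aspg -3.59, Fndc5 -3.47, Elovl3 -3.31, Tesc -3.26, Arhgef19 -3.21, Mup10 -3.05, Acsl5 -2.68, Ly6c2 -2.61, Mogat1 -2.58, Elovl6 -2.46, Ppp1r1a -2.28 and Pnp2 -2.25. Next among the lower differences came Sorl1 -2.16, St3gal5 -2.03, Acaa1b -1.99, Eno1 -1.73, Letm1 -1.65, Pgd -1.43, Gk -1.31, Hoxc4 -1.30, Gnas -1.29, Pdhb -1.24, Negr1 -1.20, Ldha -1.13 and Mpc2 -1.13. Lower log2 differences nearer to 0 included Kcnk2 -1.13, Letmd1 -1.09, Mrps27 -1.08, Pfkp -1.07, Nsdhl -1.03, Gpd1 -1.01, Idi1 -0.94, Hk2 -0.93, Dhx58 -0.92, Mccc1 -0.92, Pnp -0.91, Samd9l -0.90 and Atf5 -0.90. The lower log2 differences of smallest size were Rrm1 -0.88, Dbt -0.87, Acot8 -0.82, Atp5g3 -0.80, Tfb2m -0.69, Mrpl38 -0.65, Mrps5 -0.63, Tfam -0.61, Dlst -0.60 and Afg3l2 -0.54. The log2 differences furthest above 0 were Tusc3 3.96, Nnat 3.78, Akr1cl 3.62, Slc27a2 3.34, Gadd45b 2.91, S100a8 2.80, Nr4a1 2.78, 2610016A17Rik 2.74 and Ltc4s 2.66. Next among the higher differences came Lctl 2.57, Clu 2.38, Cdsn 2.23, Gm9961 2.22, Cryab 2.20, Plekhg6 2.17, Impdh1 2.09, Phgdh 2.09 and Snhg11 1.87. Higher log2 differences nearer to 0 included Ldhd 1.87, Pank1 1.56, Apcdd1 1.47, Jun 1.44, Aqp7 1.29, Car1 1.27, Cideb 1.25, Acad12 0.92 and Clpb 0.92. The higher log2 differences of smallest size were Zrsr1 0.87, Cpt1b 0.87, Eln 0.84, Hyou1 0.83, Auh 0.77, Cyp4b1 0.73, Pabpc1 0.67, Pnrc1 0.63 and Mpv17 0.46. Gm9961 was at 0 reads in every ERRKO library, so its value reflects the added 0.5 and is no fold.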

How the results depend on the processing

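Of 85 named genes called for the difference 47 kept the call in every alternative that tested them, 38 lost it in at least 1, 28 of these without a single library, and 0 reversed. The count of 477 became 1153 (489 higher, 664 lower) with library weights, 823 (402 and 421) with DESeq2 on the recovered reads, 412 and 376 with edgeR (TMM and RLE), and 217 (124 and 93) with both ERRKO libraries numbered 3 left out. Deposited RPKM without scaling gave 475 higher and 154 lower. Leaving out 1 library gave 225 to 822 in all, 116 to 288 higher and 106 to 534 lower. For the WT response the deposited scale gave 882 higher and 4671 lower, and 1 library left out 2738 to 3911 genes. For the ERRKO response it gave 2068 (396 higher, 1672 lower), DESeq2 gave 671 lower, both libraries numbered 3 left out 464 (304 and 160), and 1 library left out 529 to 1641 (360 to 1067 higher, 169 to 574 lower). The cause of these shifts was not tested.

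Signs reversed only in genes that did not pass: Ppargc1a at 0.058 (deposited scale) and 0.42 (both numbered 3 left out), and -0.43 to 0.30 without 1 library; Dio2 at -0.26 (pseudocount 1), -0.29 (library weights) and -0.22 (both numbered 3 left out), and -0.33 to 0.38 without 1 library; Cox7c at 0.044, Cox6a1 at 0.066 and Atp5a1 at 0.21 under quantile normalization; Ly6c1 at -0.0017 (library weights) and -0.0061 (edgeR with TMM), and -0.067 to 0.11 without 1 library. Both ERRKO libraries numbered 3 left out ended the calls of 30 of the 85 named genes (adjusted p up to 0.146), among them Plekhg6, Zrsr1, Acaa1b, Mrps5 and Auh (adjusted p = 0.067, 0.052, 0.070, 0.075 and 0.056). Of 75 named genes not called, 52 passed in at least 1 alternative: 39 with library weights, 30 with DESeq2 and 27 without WT_PBS replicate 3. With library weights the called members also became 13 of the interferon list, 10 of the pyruvate and citrate cycle list and 7 of fatty acid oxidation, and under quantile normalization 11 of the last.

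Deviations from the group means of same-numbered libraries correlated from -0.389 to 0.454 over 18 pairs, 7 of them above 0.1. Of 12 libraries 5 correlated best with their own number. Pairs of unlike number are not given beside these, so whether same-numbered libraries share a batch was not tested. With the replicate number as a block 371 genes were called, and 338 of the 477 stayed called with the same sign. The median SE of a difference was 0.19 and the smallest called size 0.39. That size is no limit of detection, since it varies with the spread of each gene. Mpv17 passed at 0.46, while Ndufa5 at -0.69 (limma adjusted p = 0.130) and Ndufv2 at -0.66 (0.127) did not. With 3 libraries per group a difference that did not pass may still be present.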
